A study of Homo sapiens with 16 samples.

Results

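The EGF family ligands examined here were 6 genes, AREG, EREG, HBEGF, TGFA, BTC and NRG1, which encode amphiregulin, epiregulin, heparin-binding EGF-like growth factor, transforming growth factor alpha, betacellulin and neuregulin 1. They were found by gene symbol among the 24293 loci of the deposited table, where they hold 7 rows because AREG is listed at 2 places. The AREG row with the higher mean was used. Of the 6 genes, 4 (AREG, HBEGF, TGFA and NRG1) reached a mean of 1 FPKM over the 16 libraries and entered the fit over 11647 loci; EREG and BTC stayed below it and were compared by exact permutation tests. FPKM counts fragments per kilobase of transcript, scaled to the mapped fragments of the library, so levels can be set side by side between genes.

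EGF family ligands are made as membrane-anchored precursors, and metalloproteinases, chiefly ADAM17 and ADAM10, release the soluble growth factor. AREG, TGFA and EGF bind the receptor EGFR; HBEGF, BTC and EREG bind EGFR and ERBB4; NRG1 binds ERBB3 and ERBB4, which signal as pairs with ERBB2. In epithelial cells, transcription of AREG, EREG, HBEGF and TGFA is known to respond to EGFR and ERK signalling, so that ligand and receptor can form a loop, and AREG is also a known target of the coactivator YAP.

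The cells were HCC4006, an established human line of non-small cell lung cancer with an activating EGFR mutation, profiled by sequencing of polyA RNA. They had received gefitinib and AZ1366 together (100 nM each), gefitinib alone (100 nM), AZ1366 alone (100 nM) or DMSO for 24 hours, with 4 libraries per group. Gefitinib inhibits the EGFR kinase and AZ1366 inhibits tankyrases, enzymes that mark AXIN and angiomotin proteins for degradation. The labels do not say if these 4 were grown apart, so p-values measure the spread between libraries, which may be technical, and all values come from a single line.

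Summed FPKM ran from 433357 to 478179 per library, and the number of reads behind them is unknown. The epithelial markers KRT8, KRT18, KRT19, EPCAM and CDH1 averaged 1029, 757, 773, 258 and 162 FPKM over all libraries, whereas PTPRC, CD3E, PECAM1, VWF and PDGFRB averaged 0.0536, 0.00229, 0.0763, 0.062 and 0.026 FPKM. COL1A1 averaged 1.77 FPKM, and CD68, a lysosomal gene of macrophages that other cells also transcribe, 46.8 FPKM. The median tested locus was lower by 0.15 on the log2 scale with both compounds than with DMSO (-0.06 with gefitinib, -0.10 with AZ1366), and small differences below are to be read against these shifts. AZ1366 library 1 stood nearest to DMSO among the AZ1366 libraries in AREG, TGFA, HBEGF and NRG1, and values without it are given where they bear on a result. In RNA from bulk cultures, less transcript per cell and fewer transcribing cells cannot be told apart.

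TGFA was the most abundant ligand transcript in every group. With DMSO it averaged 20.3 FPKM, followed by NRG1 at 11.3, HBEGF at 7.82, AREG at 6.13, BTC at 0.566 and EREG at 0.144, and no 2 neighbours in this order overlapped between libraries. With AZ1366 TGFA still led at 17.0 FPKM, while NRG1 (4.62 to 6.10), AREG (4.31 to 5.72) and HBEGF (4.45 to 5.08) overlapped. With gefitinib the order was TGFA (13.0), NRG1 (8.13), HBEGF (6.15), AREG (1.44), BTC (1.02) and EREG (0.0613). With both compounds HBEGF (3.58 to 4.16) and NRG1 (3.32 to 3.68) overlapped, and BTC (1.11 to 1.20) reached the level of the AREG row used (1.03 to 1.11). The place of AREG depends on its 2 listed copies: their sum was 12 ± 0.887 FPKM with DMSO (SD, n = 4), which overlapped NRG1, and 2.18 ± 0.0767 FPKM with both compounds.

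Summed over the 6 ligands, with 1 row each, the level was 18.9 ± 1.01 FPKM with both compounds, 29.8 ± 0.981 with gefitinib, 32.9 ± 3.49 with AZ1366 and 46.2 ± 1.85 with DMSO (SD, n = 4). The makeup of this sum also differed between groups. AREG made up 5.73 ± 0.312% of it with both compounds, 4.84 ± 0.315% with gefitinib, 15.4 ± 0.801% with AZ1366 and 13.2 ± 0.612% with DMSO. These shares use 1 of the 2 near-identical AREG rows. With both rows counted, AREG made up 10.9 ± 0.628% with both compounds, 9.17 ± 0.681% with gefitinib, 26.5 ± 0.973% with AZ1366 and 23 ± 0.839% with DMSO, of sums of 20, 31.2, 37.8 and 52.1 FPKM. NRG1 made up 18.4 ± 0.92% with both compounds, 27.3 ± 1.42% with gefitinib, 16 ± 0.487% with AZ1366 and 24.4 ± 1.15% with DMSO. BTC held 6.11 ± 0.196% with both compounds and 1.22 ± 0.361% with DMSO.

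**Figure D1:**
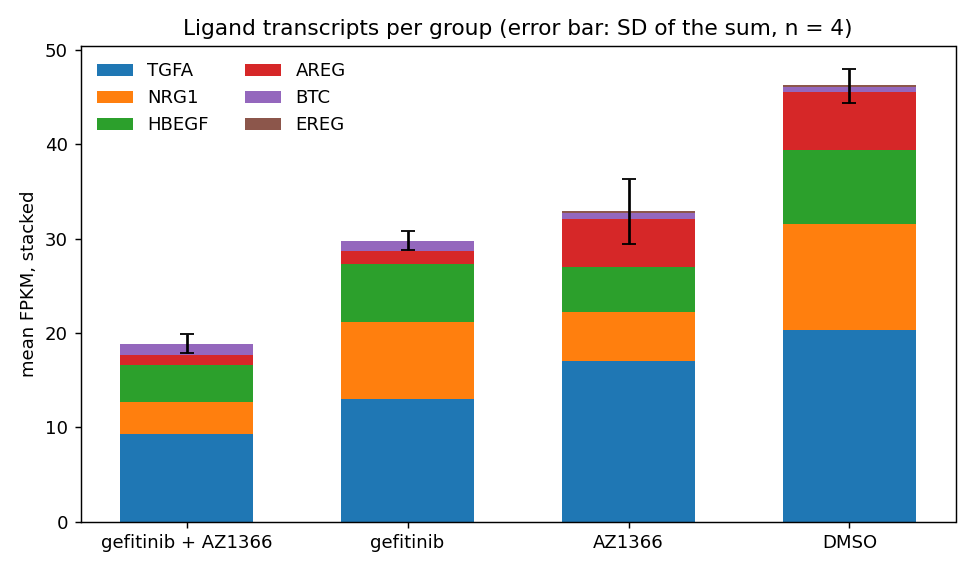
Mean FPKM of the 6 ligand genes (1 AREG row) stacked per treatment group (x axis), with the SD of the sum over 4 libraries as error bar. The sum was 18.9 FPKM with both compounds and 46.2 with DMSO, and TGFA was the largest layer in each bar.

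AREG, EREG and BTC lie side by side with EPGN, the epigen gene, within 546 kb of chromosome 4 (hg19): EPGN at chr4:75174187-75182520, EREG at chr4:75230860-75254477, AREG at chr4:75310853-75320726 with its near-identical copy at chr4:75480629-75490485, and BTC at chr4:75671448-75719882. The table lists 5 loci in this span, all of them ligand genes. The 2 AREG rows differed by a median of 2.31% of their mean (0.0891% to 6.65%), and reads cannot be assigned to either copy with certainty. The RefSeq table for GRCh38.p14 holds a single AREG gene, with AREGB as a synonym.

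The 3 named neighbours did not move alike. Gefitinib lowered AREG to 0.235 and EREG to 0.426 of the DMSO mean, whereas BTC stood at 1.80 times the DMSO mean. EPGN, at 0.0992 to 0.143 FPKM with gefitinib and 0.116 to 0.180 with DMSO, overlapped between the groups (exact permutation p = 0.114, 0.245 after Benjamini-Hochberg adjustment over 15 tests of EGF, EPGN and NRG2).

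**Figure D2:**
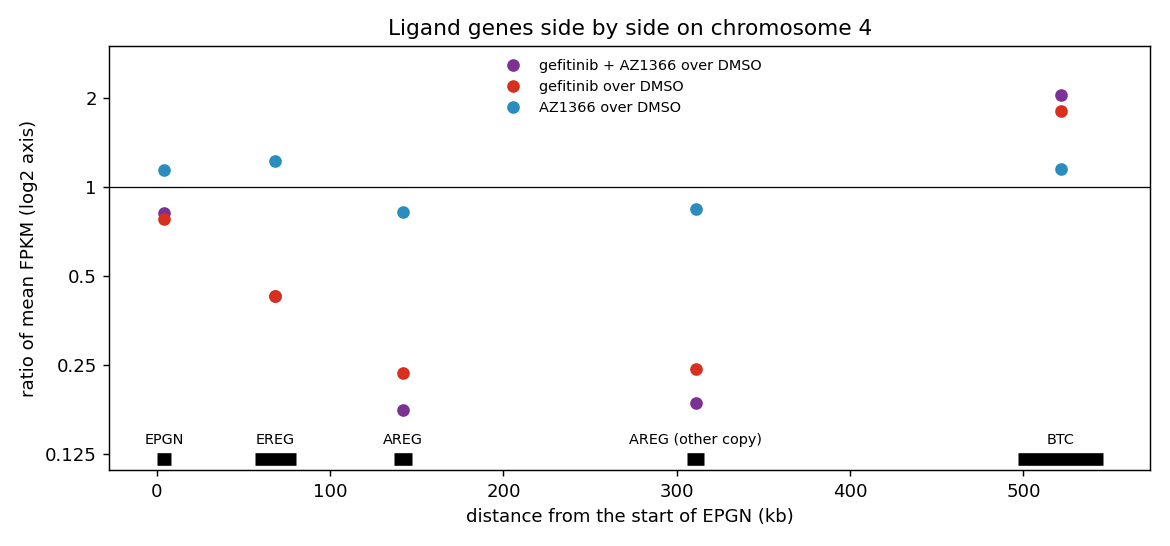
Ratio of mean FPKM to DMSO (y axis, log2 scale) for the loci on chromosome 4, placed by distance from the start of EPGN in kb (x axis; black bars are the loci). AREG lies at 0.176 to 0.242 with gefitinib or both compounds at both copies, EREG at 0.426 and 0.427 (points that coincide) and BTC at 1.80 and 2.04.

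The 250 bases before the RefSeq start of AREG, EREG and BTC (GRCh38.p14, plus strand for AREG and EREG, minus strand for BTC) are shown because these neighbours went in opposite directions under gefitinib. Capitals mark the letters TGACG (the core of the cAMP response element, CRE), GGAATG (the TEAD motif) and TATAAA on either strand; TGANTCA (the AP-1 motif) was searched in the same way.
AREG, chr4:74444886-74445135: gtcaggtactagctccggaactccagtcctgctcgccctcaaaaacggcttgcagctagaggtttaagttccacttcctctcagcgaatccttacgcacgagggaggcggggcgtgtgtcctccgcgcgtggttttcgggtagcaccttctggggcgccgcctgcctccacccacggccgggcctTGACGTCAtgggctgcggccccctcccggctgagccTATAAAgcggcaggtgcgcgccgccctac
EREG, chr4:74364895-74365144: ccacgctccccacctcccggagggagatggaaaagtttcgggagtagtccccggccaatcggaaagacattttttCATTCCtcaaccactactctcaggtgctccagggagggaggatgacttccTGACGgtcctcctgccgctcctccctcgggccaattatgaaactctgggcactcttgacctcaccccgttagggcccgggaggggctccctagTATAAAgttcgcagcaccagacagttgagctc
BTC, chr4:74794524-74794773: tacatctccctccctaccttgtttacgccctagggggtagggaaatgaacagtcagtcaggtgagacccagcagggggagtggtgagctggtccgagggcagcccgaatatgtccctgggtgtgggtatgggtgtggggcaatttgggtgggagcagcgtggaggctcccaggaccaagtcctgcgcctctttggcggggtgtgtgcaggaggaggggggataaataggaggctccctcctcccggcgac
In AREG, TGACG was matched on both strands, in overlapping positions 65 to 58 bases before the start, and TATAAA 29 to 24 bases before it. EREG held TGACG 125 to 121 bases, GGAATG on the minus strand 175 to 170 bases and TATAAA 32 to 27 bases before the start. BTC held none of the 4 motifs as spelled here, and near matches were not searched. Of 34943 promoter windows of this length, 21.2% held TGACG, 10.8% TATAAA, 11.9% GGAATG and 6.59% TGANTCA. HBEGF held none of them, and 1 of the 2 windows of TGFA held TGACG. EPGN, whose gefitinib and DMSO libraries overlapped, held TGACG 44 to 40 bases and TATAAA 29 to 24 bases before its start. Whether these letters bear on the changes was not tested.

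AREG fell the most of the tested ligands under gefitinib. Its level was 1.11, 1.07, 1.11 and 1.03 FPKM with both compounds, 1.52, 1.59, 1.31 and 1.35 with gefitinib, 5.72, 4.31, 4.90 and 5.29 with AZ1366 and 6.16, 6.38, 6.56 and 5.43 with DMSO. All 8 libraries with gefitinib lay below all 8 without it, while the AZ1366 and DMSO groups overlapped. Relative to DMSO, AREG was lower by 76.5% with gefitinib, a change of -1.55 ± 0.070 in log2(FPKM + 1) (SE; adjusted p = 6.33e-12, limma). The pseudocount shrinks this change, which was -2.02 with a pseudocount of 0.1. With AZ1366 the change from DMSO was -0.24 ± 0.070 (adjusted p = 0.0082). This small fall depended on the scaling: it was -0.13 after median-ratio scaling (adjusted p = 0.0364), -0.09 after quantile normalization (adjusted p = 0.145) and -0.50 after correction for transcript length and GC content (adjusted p = 0.000442). Without AZ1366 library 1 it was -0.29 (adjusted p = 0.00108). Both compounds together gave -1.77 ± 0.070 against DMSO (adjusted p = 3.27e-13).

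EREG, the neighbour of AREG, was near the lower end of what was measured. It stood at 0.0782, 0.0592, 0.0449 and 0.0633 FPKM with both compounds, 0.0457, 0.0716, 0.0613 and 0.0664 with gefitinib, 0.205, 0.156, 0.203 and 0.141 with AZ1366 and 0.170, 0.113, 0.154 and 0.139 with DMSO. As for AREG, every library with gefitinib was below every library without it. How many of all loci separated in this way was not counted, here and for the other genes. Limma called 36.9% of all tested loci lower in gefitinib against DMSO. The EREG mean was 0.0613 ± 0.0112 FPKM with gefitinib and 0.144 ± 0.024 with DMSO (SD, n = 4), a ratio of 0.426. Its exact permutation p was 0.0286, and no lower value is possible with 70 assignments; adjusted by Benjamini-Hochberg for the 10 tests of EREG and BTC it was 0.0476. With any single library left out the adjusted p for gefitinib against DMSO was 0.0714 to 0.0952, so the call rests on all 16 libraries entering the 10 tests; the unadjusted p stays at 0.0286 where the library left out is in neither group. The same p was reached for both compounds against DMSO (ratio 0.427) and against AZ1366 (ratio 0.348). AZ1366 against DMSO gave a ratio of 1.22 (exact permutation p = 0.171, adjusted p = 0.214), and both compounds against gefitinib a ratio of 1 (exact permutation p = 1).

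BTC went the other way. Its level was 1.20, 1.16, 1.14 and 1.11 FPKM with both compounds, 1.02, 1.18, 0.908 and 0.966 with gefitinib, 0.769, 0.374, 0.845 and 0.612 with AZ1366 and 0.355, 0.741, 0.671 and 0.494 with DMSO. Limma called 27.7% of all tested loci higher in gefitinib against DMSO, and how many loci separated like BTC was not counted. For BTC every library with gefitinib exceeded every library without it, and the AZ1366 and DMSO groups overlapped. The mean was 1.02 ± 0.116 FPKM with gefitinib and 0.566 ± 0.174 with DMSO, a ratio of 1.80, and 1.15 ± 0.0376 FPKM with both compounds, 2.04 times DMSO (SD, n = 4; exact permutation p = 0.0286 and adjusted p = 0.0476 for each). Both compounds against AZ1366 gave a ratio of 1.78 with the same p. The ratio of AZ1366 to DMSO was 1.15 (exact permutation p = 0.571, adjusted p = 0.635), and that of both compounds to gefitinib 1.13 (exact permutation p = 0.114, adjusted p = 0.163). In log2, BTC over AREG stood at 0.09 ± 0.04 with both compounds, -0.51 ± 0.06 with gefitinib, -3.02 ± 0.42 with AZ1366 and -3.49 ± 0.44 with DMSO (SD, n = 4). With both AREG rows summed this ratio was -0.91 ± 0.05 with both compounds, which turns its sign there, -1.50 ± 0.06 with gefitinib, -4.00 ± 0.40 with AZ1366 and -4.46 ± 0.45 with DMSO.

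TGFA (hg19 chr2:70674412-70781147), the main EGFR ligand transcript here, fell with each compound and further with both. It stood at 9.93, 9.77, 8.47 and 8.87 FPKM with both compounds, 13.3, 14.0, 12.5 and 12.1 with gefitinib, 19.8, 15.5, 16.3 and 16.3 with AZ1366 and 21.4, 19.4, 20.4 and 19.9 with DMSO. AZ1366 library 1, at 19.8 FPKM, lay within the DMSO range, and the other 3 AZ1366 libraries lay below it. The change from DMSO was -0.61 ± 0.073 with gefitinib (35.9% lower; adjusted p = 1.39e-06, limma) and -0.25 ± 0.073 with AZ1366 (16.3% lower; adjusted p = 0.00788). The AZ1366 change was -0.13 after median-ratio scaling and -0.11 after quantile normalization, both past the threshold (adjusted p = 0.018 and 0.0342), and -0.32 without AZ1366 library 1. With both compounds TGFA was 54.3% below DMSO (-1.05 ± 0.073, adjusted p = 4.35e-10) and 28.7% below gefitinib (-0.45 ± 0.073, adjusted p = 0.000122).

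HBEGF (hg19 chr5:139712428-139726188) fell more with AZ1366 than with gefitinib. Its level was 3.96, 4.16, 3.83 and 3.58 FPKM with both compounds, 6.31, 5.78, 6.24 and 6.27 with gefitinib, 5.08, 4.45, 4.77 and 4.71 with AZ1366 and 7.65, 7.89, 8.24 and 7.51 with DMSO. Of all tested loci 36.9% were called lower in gefitinib against DMSO and 39.8% in AZ1366 against DMSO. No 2 of the 4 HBEGF groups overlapped, and how many loci separated in this way was not counted. The change from DMSO was -0.62 ± 0.054 with AZ1366 (39.2% lower; adjusted p = 2.93e-07) and -0.30 ± 0.054 with gefitinib (21.4% lower; adjusted p = 0.000111). With both compounds HBEGF was 50.4% below DMSO (-0.85 ± 0.054, adjusted p = 1.52e-10).

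NRG1 (hg19 chr8:31497268-32622558), the ligand of ERBB3 and ERBB4, had the larger fall under AZ1366. It stood at 3.36, 3.68, 3.50 and 3.32 FPKM with both compounds, 7.52, 8.49, 8.27 and 8.21 with gefitinib, 6.10, 4.62, 5.41 and 5.00 with AZ1366 and 10.8, 11.8, 12.3 and 10.4 with DMSO. The 4 groups did not overlap, which was not counted over all loci either, and AZ1366 library 1 was again the highest of its group. The change from DMSO was -0.97 ± 0.070 with AZ1366 (53.3% lower; adjusted p = 2.95e-08) and -0.43 ± 0.070 with gefitinib (28.2% lower; adjusted p = 4.41e-05). Both compounds brought it 69.4% below DMSO (-1.46 ± 0.070, adjusted p = 4.14e-12). The table sums the many NRG1 transcripts, which encode different neuregulin forms, in 1 locus.

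**Figure D3:**
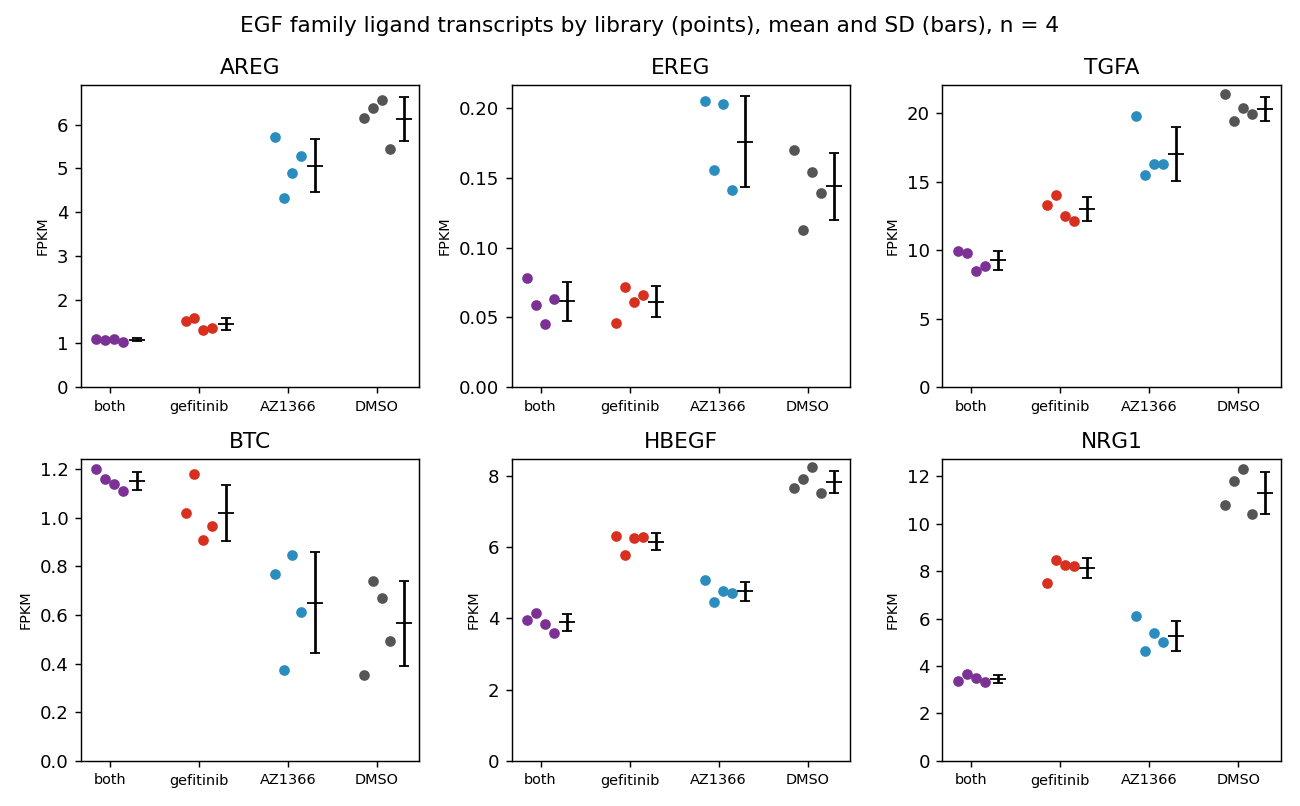
FPKM of each ligand gene in the 16 libraries (points) with mean and SD (bars, n = 4) per group; each panel has its own axis, from 0. AREG and EREG are low and BTC is high in all libraries with gefitinib, and HBEGF and NRG1 are lower with AZ1366 than with gefitinib.

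All 4 tested ligands passed an adjusted p of 0.05 in the downward direction in each of the 5 pairwise comparisons, and so did a large share of all loci. In gefitinib against DMSO 36.9% of tested loci were called lower, in AZ1366 against DMSO 39.8%, in both compounds against DMSO 49.4%, in both against gefitinib 37.2% and in both against AZ1366 35.7%. The direction of 4 genes is therefore read with the size of each change. The median change of the 4 ligands was -0.52 with gefitinib, -0.43 with AZ1366 and -1.26 with both compounds against DMSO, beside -0.06, -0.10 and -0.15 over all tested loci. Counted from the largest fall with gefitinib against DMSO, AREG was number 15 of 11647 loci, TGFA 801, NRG1 1757 and HBEGF 2831. With AZ1366 against DMSO NRG1 was number 37, HBEGF 452, TGFA 3506 and AREG 3643.

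Adding AZ1366 to gefitinib lowered the tested ligands further. Relative to gefitinib alone, the change was -1.03 ± 0.070 for NRG1 (adjusted p = 2.03e-08), -0.55 ± 0.054 for HBEGF (adjusted p = 8.51e-07), -0.45 ± 0.073 for TGFA and -0.23 ± 0.070 for AREG (adjusted p = 0.0122). The AREG change was -0.13 after quantile normalization (adjusted p = 0.0437) and -0.43 after length and GC correction. With a pseudocount of 0.1 it was -0.38 (adjusted p = 0.00249). In mean FPKM the falls from gefitinib alone were 57.4% for NRG1, 36.9% for HBEGF, 28.7% for TGFA and 25% for AREG. In both compounds against gefitinib the median over all tested loci was -0.10. AREG was number 3489 of 11647 there, counted from the largest fall in log2(FPKM + 1), a scale that shrinks changes at low FPKM. Adding gefitinib to AZ1366 gave -1.54 ± 0.070 for AREG (adjusted p = 7.28e-12), -0.81 ± 0.073 for TGFA (adjusted p = 3.81e-08), -0.49 ± 0.070 for NRG1 (adjusted p = 1.14e-05) and -0.24 ± 0.054 for HBEGF (adjusted p = 0.00108). The interaction, which asks whether AZ1366 acted differently with and without gefitinib, was 0.01 ± 0.099 for AREG, 0.07 ± 0.077 for HBEGF, -0.20 ± 0.10 for TGFA and -0.06 ± 0.10 for NRG1. None of the 4 passed in limma (0 also at an unadjusted p of 0.05, the smallest being 0.0685 for TGFA), while 1.82% of all loci did. A p that misses the threshold does not show that the effects of the compounds add up exactly.

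**Figure D4:**
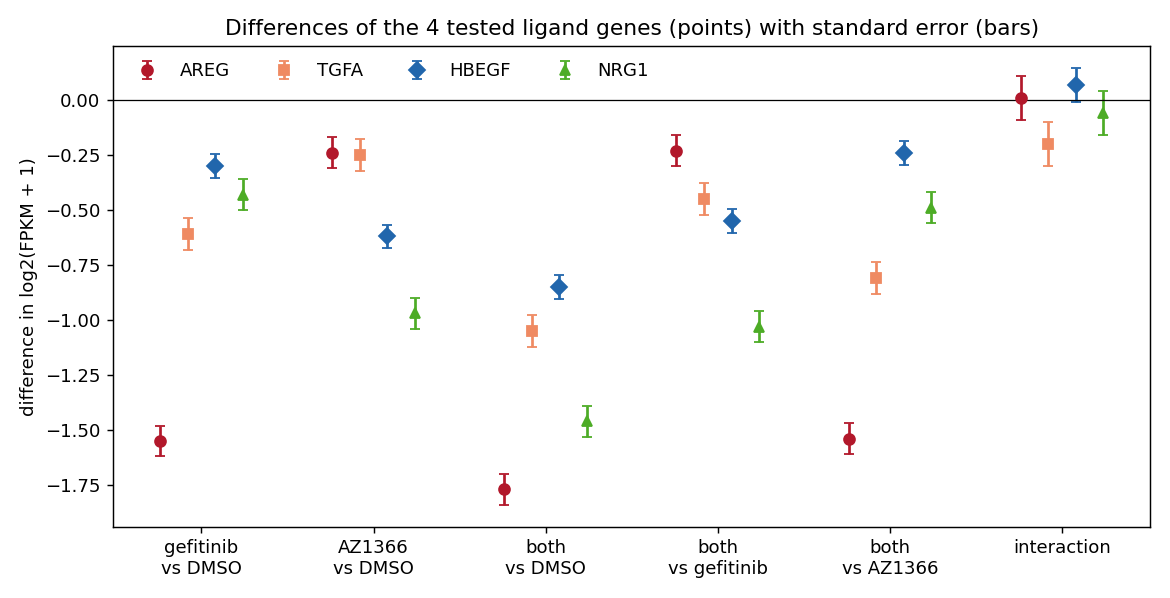
Difference in log2(FPKM + 1) (y axis) of AREG, TGFA, HBEGF and NRG1 in 5 pairwise comparisons and the interaction (x axis), with the standard error of the fit. AREG lies at -1.55 with gefitinib and -0.24 with AZ1366, NRG1 at -0.43 and -0.97, and the interactions lie between -0.20 and 0.07.

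A direct comparison of gefitinib with AZ1366 gave ligand differences in both directions. It was chosen after the values were seen, so its p-values describe differences already seen in these libraries. AREG was lower with gefitinib than with AZ1366 by -1.31 ± 0.070 (adjusted p = 1.13e-10) and TGFA by -0.36 ± 0.073 (adjusted p = 0.000627); 17.9% of all loci were called in this direction. NRG1 was higher with gefitinib by 0.54 ± 0.070 (adjusted p = 6.53e-06) and HBEGF by 0.31 ± 0.054 (adjusted p = 0.000142), as 28.1% of all loci were. EREG stood at 0.348 and BTC at 1.57 times their AZ1366 means with gefitinib (exact permutation p = 0.0286 for each, also after adjustment over these 2 tests).

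The remaining ligand genes of the family were scarcely detected. EGF, the founding ligand, averaged 0.307 ± 0.0343 FPKM with both compounds, 0.287 ± 0.0448 with gefitinib, 0.274 ± 0.0243 with AZ1366 and 0.256 ± 0.0392 with DMSO (SD, n = 4), and these groups overlapped. NRG2, a ligand of ERBB3 and ERBB4, was 0.0207 to 0.0551 FPKM with both compounds, 0.0246 to 0.0716 with gefitinib, 0.106 to 0.177 with AZ1366 and 0.146 to 0.248 with DMSO. Its libraries with and without gefitinib did not overlap, at 0.237 of the DMSO mean with gefitinib (exact permutation p = 0.0286, 0.107 after adjustment over the 15 tests). NRG3 was listed at 0 in every library, and NRG4 reached at most 0.0524 FPKM.

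The receptors of these ligands went in different directions. EGFR was 20.8 ± 2.45 FPKM with both compounds, 38.1 ± 4.06 with gefitinib, 41.3 ± 8.92 with AZ1366 and 77.7 ± 4.39 with DMSO (SD, n = 4). ERBB3, to which NRG1 binds, was 13.2 ± 0.894 FPKM with both compounds, 11.3 ± 0.788 with gefitinib, 9.60 ± 0.975 with AZ1366 and 8.14 ± 0.827 with DMSO. Against DMSO it rose by 0.43 ± 0.077 with gefitinib, 0.21 ± 0.077 with AZ1366 and 0.64 ± 0.077 with both (adjusted p = 0.000106, 0.0244 and 6.22e-07), although its AZ1366 and DMSO libraries overlapped. ERBB2, the partner receptor without a ligand of its own, rose by 0.48 ± 0.11 with gefitinib (adjusted p = 0.00101) and changed by -0.14 ± 0.11 with AZ1366 (adjusted p = 0.291). ERBB4 reached at most 0.0218 FPKM in any library.

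Genes for shedding and transport of the ligands were mixed. Of 16 listed genes 14 were tested; 5 rose and 5 fell with gefitinib, 3 rose and 5 fell with AZ1366, and 4 rose and 5 fell with both, against DMSO. Over all tested loci 27.7%, 18.6% and 29.9% were called higher in these comparisons, and 36.9%, 39.8% and 49.4% lower. The 5 of 14 that fell are thus not above the share over all loci. RHBDL2, a rhomboid protease of the cell surface that can cleave EGF, was 13.5 ± 0.356 FPKM with both compounds, 10.8 ± 0.610 with gefitinib, 6.29 ± 0.271 with AZ1366 and 3.88 ± 0.398 with DMSO, and rose in each comparison with DMSO (1.58 ± 0.061, 1.28 ± 0.061 and 0.58 ± 0.061). ADAM17 was 27.0 ± 0.913 FPKM with both compounds, 25.5 ± 1.12 with gefitinib, 20.2 ± 1.74 with AZ1366 and 18.4 ± 1.03 with DMSO; it rose by 0.45 ± 0.060 with gefitinib (adjusted p = 4.97e-06) and gave 0.12 ± 0.060 with AZ1366 (adjusted p = 0.088). CD9, a tetraspanin that associates with the HBEGF precursor, rose by 0.47 ± 0.13 with gefitinib and 0.82 ± 0.13 with AZ1366. ADAM12, another metalloproteinase, fell by 0.45 with gefitinib and by 0.46 with AZ1366, and BACE1, a protease that cleaves NRG1 in the nervous system, fell by 0.42 with AZ1366.

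Genes that respond to ERK and genes that respond to YAP give 2 scales for the ligand changes. Both lists were chosen with earlier results of these data known, so their counts are no independent measure of either pathway. Of 17 ERK output genes, 15 fell with gefitinib and none rose (median -1.27), whereas 8 fell and 2 rose with AZ1366 (median -0.18). Of all tested loci 36.9% fell and 27.7% rose with gefitinib, and 39.8% fell and 18.6% rose with AZ1366, so the count of ERK genes that fell with AZ1366 is near the share over all loci. Of 12 targets of YAP and TEAD, all 12 fell with AZ1366 (median -0.89), whereas 5 fell and 5 rose with gefitinib (median 0.05), not far from the shares over all loci. In log2(FPKM + 1), AREG, at -1.55 with gefitinib, fell about as far as ETV5, an ETS factor gene (-1.56). It fell less far than ETV1 (-1.97), PHLDA1 (-2.54) and the phosphatase gene DUSP6 (-2.73). The pseudocount shrinks changes at low FPKM more. As ratios of mean FPKM to DMSO, AREG stood at 0.235, ETV5 at 0.273, ETV1 at 0.143, PHLDA1 at 0.15 and DUSP6 at 0.115. With AZ1366 NRG1, at -0.97, fell about as far as CTGF, a secreted matrix protein gene and YAP target (-1.02). CTGF rose with gefitinib (1.16), where NRG1 fell (-0.43). FOSL1, an AP-1 gene of the ERK list, fell by 1.10 with AZ1366. In the same list MYC and the cyclin gene CCND1 also fell with AZ1366 (-0.74 and -0.72), and SPRY1, a feedback inhibitor gene, rose (0.37). SPRY1 averaged 1.41 FPKM with AZ1366, 1.19 with both compounds, 0.738 with gefitinib and 0.868 with DMSO. It thus reached the mean of 1 FPKM for the fit only through the groups with AZ1366. Among the YAP and TEAD targets NT5E, the gene of the ectoenzyme CD73, fell further with gefitinib (-2.21) than with AZ1366 (-0.61) in these estimates, and F3, the tissue factor gene, fell with each (-0.82 with gefitinib and -1.11 with AZ1366). AREG, itself known as a YAP target, changed by -0.24 with AZ1366, while the 12 listed targets ran from -1.32 (AXL and ANKRD1) to -0.57. Whether ERK or YAP lay behind any of the ligand changes was not tested.

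**Figure D5:**
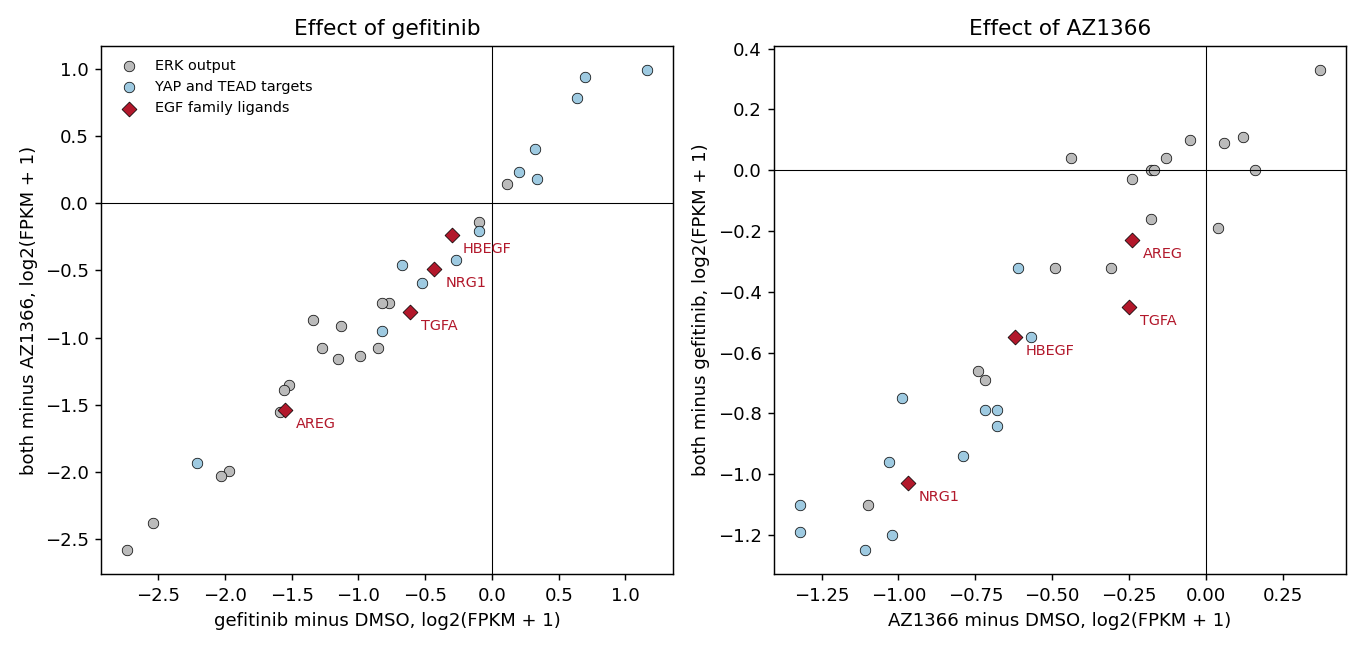
Change in log2(FPKM + 1) of ligand genes, ERK output genes and YAP and TEAD targets for gefitinib (left; without AZ1366 on the x axis, with it on the y axis) and AZ1366 (right; without gefitinib on the x axis, with it on the y axis). The axes of a panel share no library; AREG is at -1.55 and -1.54 on the left and NRG1 at -0.97 and -1.03 on the right.

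The loci whose profiles were most like those of the ligands were found as the smallest root mean square difference over the 16 libraries, in log2(FPKM + 1) relative to the DMSO mean. For AREG these were ITGA6, an integrin gene (0.125), and SEMA3A, a semaphorin gene (0.136). For TGFA they were CDCP1 (0.0614) and TUBGCP5 (0.0656), for HBEGF EPG5 (0.0874) and NEGR1 (0.0925), and for NRG1 UAP1 (0.132) and FAM101B (0.133). ITGA6 stood at -1.79 with both compounds, -1.39 with gefitinib and -0.33 with AZ1366 relative to DMSO, beside -1.77, -1.55 and -0.24 for AREG. These genes were picked from 11647 for their likeness, so the values describe these libraries only.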

How the data were processed

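Polyadenylated RNA of HCC4006 cells was sequenced in 16 libraries, 4 for each of 4 treatments. The authors deposited FPKM per locus and library; per the submitters' processing notes the tools included Cuffdiff, Cufflinks 1.3.0 and TopHat 1.4.1, and the build was hg19. Their roles, the annotation and any further scaling are not given in the sources used here. Depth is unknown. Locus starts, 0-based in the table, were printed 1-based.

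Loci with a mean of at least 1 FPKM (11647 of 24293) were fitted with limma 3.58.1 (R 4.3.3) on log2(FPKM + 1), with 4 group means, 12 residual degrees of freedom and a mean-variance trend; its two-sided p-values were adjusted over all tested loci (Benjamini-Hochberg, threshold 0.05). Exact permutation tests of mean FPKM (scipy 1.17.1, two-sided) covered EREG and BTC, and EGF, EPGN and NRG2. The fit was tested on simulated data. Promoter letters came from RefSeq (GRCh38.p14). HBEGF, TGFA, BTC, AREG, EREG and EPGN were matched there by symbol.

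The ligand genes and gene lists were chosen with earlier results of these data known. Named genes are the ligands, their relatives and receptors, list members with the smallest p, and the 2 nearest profiles. The comparison of gefitinib with AZ1366 was chosen after values were seen. NRD1 and COL3A1 share a row with a microRNA gene and were not used. Alternatives were a pseudocount of 0.1, no filter or a mean of 5 FPKM, quantile normalization, median-ratio scaling, no trend, only the libraries compared, a replicate block, summed AREG rows, a length and GC correction (5 spline terms each) and leaving out each library.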

Additional observations from a re-analysis of the deposited data

Results flagged for a closer look

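HBEGF in gefitinib library 2, at 5.78 FPKM, stood apart from the other 3 gefitinib libraries, at 6.24 to 6.31 FPKM, by more of the group's range than Dixon's 95% limit for 4 samples allows. It was the only one of 48 groups of 4 libraries looked at (6 ligands, EGF, EPGN, NRG2, EGFR, ERBB2 and ERBB3) to do so, and chance flags about 1 in 20. Without that library HBEGF kept its call in gefitinib against DMSO.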

How the results depend on the processing

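The 4 tested ligands kept their direction in every alternative of the pairwise comparisons, and their calls in all but AREG in AZ1366 against DMSO after quantile normalization (-0.09, adjusted p = 0.145). With a minimum mean of 5 FPKM AREG was not tested. Without a filter BTC and EREG entered the fit and were called in gefitinib against DMSO (0.37 and -0.11), in both compounds against DMSO (0.47 and -0.11) and in both against AZ1366 (0.39 and -0.15). The interaction of AREG, not called in any alternative, changed sign with a pseudocount of 0.1 (-0.10), quantile normalization (-0.04), median-ratio scaling (-0.03) and summed AREG rows (-0.04), and ran from -0.05 to 0.06 with 1 library left out; that of NRG1 reached 0.00. Over all loci the interaction called 620 after quantile normalization, 419 after median-ratio scaling and 99 to 514 with 1 library left out (lowest without DMSO library 4, highest without AZ1366 library 1), against 212. Of the 10 exact tests of EREG and BTC 6 passed, 7 after median-ratio scaling (BTC with both compounds above gefitinib by 0.232 FPKM), and 0 with any 1 library left out, where tests that lose a library have fewer assignments and the adjustment over the 10 tests lifts the others past 0.05; the EREG difference of both compounds from gefitinib then ran from -0.00545 to 0.00564 FPKM. With the replicate number as a block all 4 ligands kept their calls in each pairwise comparison (AREG in gefitinib against DMSO at -1.55, adjusted p = 4.62e-11). The labels tie libraries with the same number by that number only. Their deviations had a median correlation of 0.215 over 24 pairs (-0.447 to 0.539), with 16 over 0.1. Over 72 pairs with different numbers the median was -0.0914. Whether libraries with the same number shared a batch was not tested. The depth behind the values is unknown.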
